A study of Mus musculus with 4 samples.

Results

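The troponin genes encode the calcium switch of the striated muscle thin filament. Of the 7 genes named by symbol for this account (Tnnt1, Tnnt2, Tnnt3, Tnni1, Tnni2, Tnnc1 and Tnnc2), 6 were found among the 19353 genes of the count table, and all 6 passed the filter on low counts that left 7228 genes for the fit, 4 of them (Tnnt1, Tnnt2, Tnni1 and Tnnc1) through the overloaded libraries alone. Tnnc2 and the remaining family member Tnni3 were not analysed here. The genes were selected on their UMI counts in these sham and overloaded libraries, so that their values are given as a description and nothing is read from their tests. After overload, cardiac Tnnt2, slow Tnni1 and slow/cardiac Tnnc1 averaged 589, 223 and 95.6 normalized counts (CPM), where both libraries of sham muscle stem cells (MuSCs) together held at most 1 molecule of each, whereas fast Tnnt3 and Tnni2 and slow Tnnt1 were already detected in sham MuSCs and stood 2- to 3-fold higher after TMM scaling.

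A troponin complex sits on tropomyosin along the actin filament and has a calcium-binding subunit (troponin C), an inhibitory subunit (troponin I) and a tropomyosin-binding subunit (troponin T). Each subunit has isoforms from separate genes that adult muscle uses by fibre type. Tnnt1 and Tnni1 are the slow skeletal forms, Tnnt3 and Tnni2 are the fast skeletal forms, and Tnnc1 serves both slow skeletal muscle and heart. Tnnt2 is the troponin T of the heart, and it is also expressed transiently in embryonic and regenerating skeletal muscle. Quiescent MuSCs, the Pax7-expressing stem cells under the basal lamina of the myofibre, are not contractile cells.

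All mice carried Pax7-CreERT2:Rosa-YFP, in which tamoxifen-activated Cre under the control of Pax7 switches on yellow fluorescent protein (YFP), so that Pax7-expressing cells and their descendants keep the label after Pax7 itself is lost. MuSCs of plantaris muscle were collected 4 days after surgery by their YFP fluorescence, from muscle overloaded by transection of the synergist tendons (tenotomy, 2 libraries) or from sham muscle with a skin incision alone (2 libraries), and the age of the mice was not given in the sources used here. Each library came from a tube of 100 sorted cells. The sources used here do not say either whether 2 libraries of 1 group were from separate mice, so that every p-value below measures the spread between these libraries, which may be technical. Elsewhere in the study sham muscle was the contralateral one, so that the groups may also share mice, which is not stated for these libraries. RNA-seq was performed by CEL-Seq2, which sequences the 3′ end of each captured transcript and tags it with a unique molecular identifier (UMI). A count is therefore a number of captured molecules and does not scale with transcript length. Depth was 269683 and 260488 UMIs for sham replicates 1 and 2, and 387955 and 483528 UMIs for overloaded replicates 1 and 2, an order kept for all pairs of values below. Normalized levels are given as CPM (UMI counts scaled to a common library total after TMM), not divided by length, and 3 counts, the limit that a count of 0 allows, corresponded to 13.1 and 13.6 CPM in the sham and 7.80 and 6.08 CPM in the overloaded libraries.

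Tnnt2, the cardiac and embryonic troponin T, had 0 UMIs in both sham libraries and 213 and 308 UMIs in the overloaded libraries. Its normalized level was 0 CPM in both sham libraries and 554 and 624 CPM after overload (589 ± 49.4 CPM, SD, n = 2). The overloaded libraries were therefore at least 89.1-fold higher, taking 3 counts over the sham group as the floor. That bound was 42.6 without sham replicate 1 and 44.2 without sham replicate 2. Among the 47 tested genes that had no count in either sham library, Tnnt2 held the most UMIs after overload, 521 in both libraries together, followed by Spp1 (osteopontin, a secreted matrix protein) with 344. The gene lies at chr1:135836354-135852260 on the plus strand of GRCm38 and has 16 exons in its longest coding transcript, as exons are counted for the other genes below.

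Tnni1 and Tnnc1 were likewise at or next to 0 in sham MuSCs and followed at lower levels. Tnni1, the slow skeletal troponin I, had 1 and 0 UMIs in the sham and 69 and 132 UMIs in the overloaded libraries. Its level was 2.18 ± 3.08 CPM in sham and 223 ± 62.2 CPM in overloaded MuSCs, a ratio of 103 with an exact 95% interval of 18.3 to 4091. Because a single molecule carried the sham level, the upper end of that interval is loose, and without sham replicate 1 the overloaded level was at least 16.4-fold higher. Tnnc1, the slow and cardiac troponin C, had 0 and 0 UMIs in the sham and 26 and 61 UMIs in the overloaded libraries. This corresponded to 67.6 and 124 CPM after overload (95.6 ± 39.5 CPM) and to a level at least 14.9-fold higher. The bound was 7.12 without sham replicate 1 and 7.38 without sham replicate 2. Overloaded replicate 2 was above overloaded replicate 1 for both Tnni1 and Tnnc1, by CPM ratios of 1.49 and 1.83, against 1.13 for Tnnt2. Such intervals and floors cover counting error only.

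Fast troponins were detected in every library. Tnnt3, the fast troponin T, had 76 and 45 UMIs in the sham and 225 and 318 UMIs in the overloaded libraries. Its level was 331 and 204 CPM (267 ± 89.8 CPM) in sham and 585 and 644 CPM (614 ± 41.7 CPM) in overloaded MuSCs, with a fitted log2 fold change of 1.20 (SE 0.20). The groups did not overlap, and sham replicate 1 was the higher of the sham libraries. Tnni2, the fast troponin I, had 44 and 22 UMIs in the sham and 143 and 133 UMIs in the overloaded libraries. Its level was 192 and 99.7 CPM (146 ± 65.0 CPM) in sham and 372 and 269 CPM (321 ± 72.5 CPM) in overloaded MuSCs, with a log2 fold change of 1.12 (SE 0.25). Sham replicate 1 was again the higher one, and the gap between the groups was narrow.

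Tnnt1, the slow troponin T, was the least abundant troponin T gene in the overloaded libraries and the slow troponin gene with the most sham counts. It had 8 and 5 UMIs in the sham and 30 and 41 UMIs in the overloaded libraries. Its level was 28.7 ± 8.61 CPM in sham and 80.5 ± 3.55 CPM in overloaded MuSCs, with a log2 fold change of 1.47 (SE 0.40). All 6 genes were called higher at an adjusted p of 0.1 by edgeR's quasi-likelihood test, a call that 25.8% of the genes tested also received, and all 6 had groups that did not overlap, as did 37.5% of the genes tested in the same direction and 35.4% in the other. DESeq2 called 5 of the 6, with Tnnt1 left out. Since these values led to the choice of the genes, nothing is read from those counts.

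**Figure D1:**
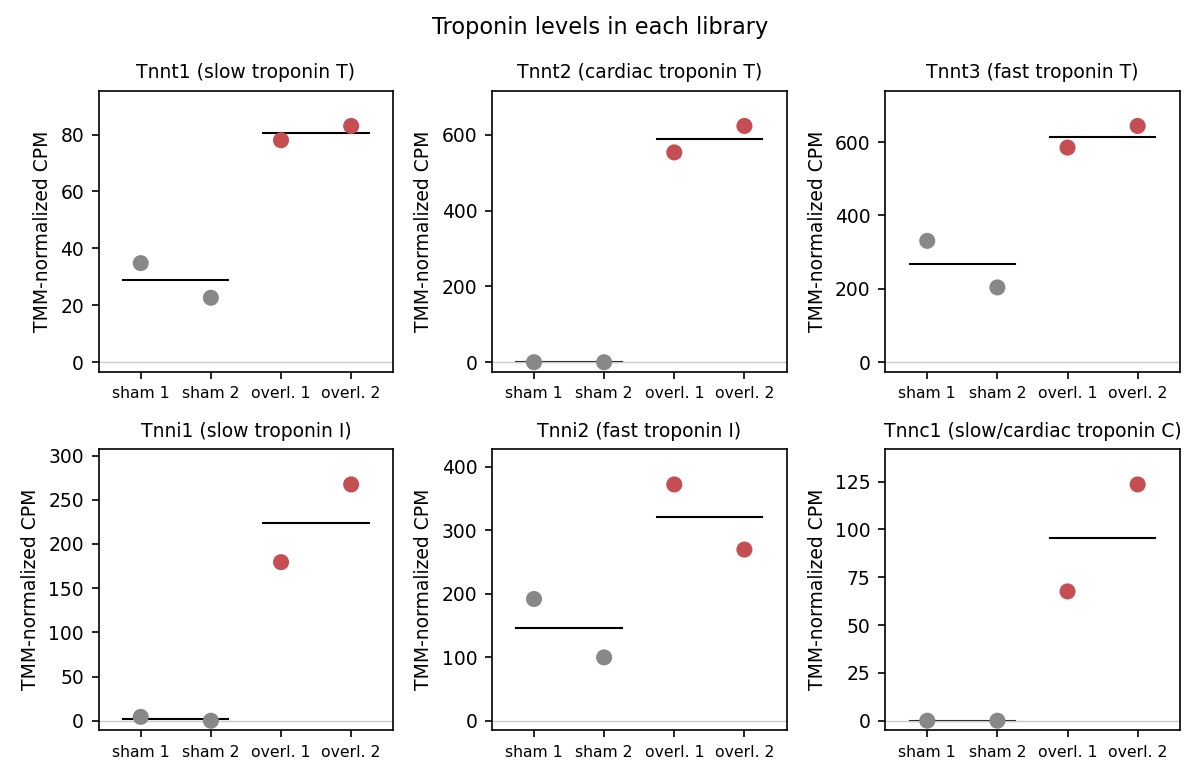
TMM-normalized level (CPM, linear axes that differ between panels) of each troponin gene in the 2 sham (grey) and 2 overloaded (red) libraries, with horizontal lines at the group means. Tnnt2 and Tnnc1 sit at 0 in both sham libraries and reach 554 to 624 CPM and 67.6 to 124 CPM after overload, whereas Tnnt3 and Tnni2 start from 204 to 331 CPM and 99.7 to 192 CPM.

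Ordered by level after overload, Tnnt3 and Tnnt2 came first, with ranges that overlapped (585 to 644 CPM and 554 to 624 CPM). Tnni2 followed, then Tnni1, whose higher library fell just short of the lower Tnni2 library, and both stood below the troponin T pair. Tnnc1 and Tnnt1 were lowest, and their ranges overlapped too. In sham MuSCs the order was Tnnt3, Tnni2 and Tnnt1, with Tnni1, Tnnt2 and Tnnc1 at or next to 0. Summed by subunit, troponin T went from 296 ± 98.4 to 1284 ± 94.7 CPM and troponin I from 148 ± 68.0 to 544 ± 10.3 CPM. By fibre type, the slow genes (Tnnt1, Tnni1 and Tnnc1) held 30.9 ± 11.7 CPM in sham and 399 ± 105 CPM in overloaded MuSCs, and the fast genes (Tnnt3 and Tnni2) held 413 ± 155 and 935 ± 30.8 CPM. The fast sum thus remained above the slow sum in both groups.

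Isoform make-up within a library does not depend on how libraries are scaled. Among troponin T UMIs, Tnnt2 held 0 of 84 in sham replicate 1, which allows a share of up to 3.57%, and 0 of 50 in sham replicate 2, which allows up to 6.0%. After overload it held 45.5% (Wilson 95% interval 41.1 to 50.0%) of 468 UMIs and 46.2% (42.4 to 50.0%) of 667 UMIs. The overloaded libraries were nearly identical in this share. Tnnt3 held 90.5% and 90.0% of troponin T UMIs in the sham and 48.1% and 47.7% in the overloaded libraries, so that Tnnt2 and Tnnt3 were close to equal in number after overload, with 0.947 and 0.969 Tnnt2 UMIs for each Tnnt3 UMI. The share of Tnnt1 was small throughout, at 8 of 84 and 5 of 50 UMIs in sham and 6.41% and 6.15% after overload.

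For troponin I, Tnni1 held 1 of 45 UMIs (2.22%) in sham replicate 1 and 0 of 22 in sham replicate 2, a count that allows up to 13.6%. After overload its share was 32.5% (26.6 to 39.1%) in replicate 1 and 49.8% (43.8 to 55.8%) in replicate 2. Unlike the troponin T shares, these intervals did not overlap between the overloaded libraries, so that the share of the slow form differed between the 2 tubes by more than counting error. The ratio of the fast pair, Tnnt3 to Tnni2 UMIs, was 1.73 and 2.05 in the sham and 1.57 and 2.39 in the overloaded libraries, with overlapping ranges.

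**Figure D2:**
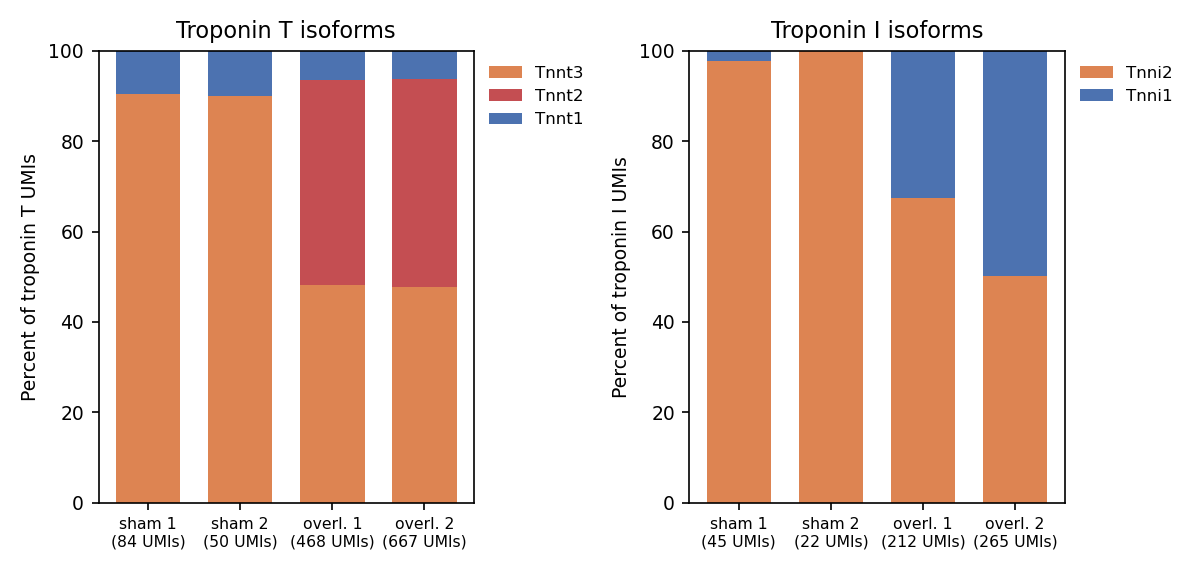
Percent of troponin T UMIs (left) and troponin I UMIs (right) held by each gene in each library, with the number of UMIs behind each bar. Tnnt2 goes from 0 in the sham libraries to 45.5% and 46.2% in the overloaded ones, and Tnni1 goes from observed shares of 2.22% and 0% to 32.5% and 49.8%.

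Sequence before an annotated start is shown for the 4 troponins with a promoter window in the RefSeq table used (GRCm38.p6): the 3 that were at or next to 0 in sham MuSCs, and Tnnt1. Each window is the 250 bases before the first start in that table, written from 5′ to 3′ on the strand of the gene. For Tnni1 and Tnnt1 this start lies inside the gene as GENCODE draws it, so that their windows are within the gene positions given further on. Capitals mark matches on either strand to the E-box CANNTG, the letters bound by MyoD-family factors, and to the MCAT element CATTCC, the letters bound by TEAD factors, which reads GGAATG on the other strand. No matches overlapped in these windows.
Tnnt2 (chr1:135836084-135836333, plus strand): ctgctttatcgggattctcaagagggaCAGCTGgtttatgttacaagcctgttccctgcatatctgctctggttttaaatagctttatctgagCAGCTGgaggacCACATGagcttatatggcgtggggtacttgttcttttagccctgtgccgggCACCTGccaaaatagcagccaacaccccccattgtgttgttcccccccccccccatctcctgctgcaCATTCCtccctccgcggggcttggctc
Tnni1 (chr1:135799171-135799420, plus strand): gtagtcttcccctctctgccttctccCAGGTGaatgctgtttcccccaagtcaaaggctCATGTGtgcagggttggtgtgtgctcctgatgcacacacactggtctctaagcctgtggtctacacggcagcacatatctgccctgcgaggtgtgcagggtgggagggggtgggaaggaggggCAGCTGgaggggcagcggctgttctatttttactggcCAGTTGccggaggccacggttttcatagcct
Tnnc1 (chr14:31208062-31208311, plus strand): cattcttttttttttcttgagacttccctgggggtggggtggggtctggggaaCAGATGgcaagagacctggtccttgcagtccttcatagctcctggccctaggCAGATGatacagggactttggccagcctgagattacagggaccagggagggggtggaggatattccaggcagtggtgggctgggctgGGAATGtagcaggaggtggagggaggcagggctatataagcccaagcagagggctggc
Tnnt1 (chr7:4515976-4516225, minus strand): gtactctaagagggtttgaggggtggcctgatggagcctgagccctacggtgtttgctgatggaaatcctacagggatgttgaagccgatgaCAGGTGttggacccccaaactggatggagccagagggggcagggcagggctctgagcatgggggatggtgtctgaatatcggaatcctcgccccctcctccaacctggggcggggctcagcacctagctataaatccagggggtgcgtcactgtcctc
The Tnnt2 window holds 4 E-box matches, with CAGCTG at 223 to 218 and at 157 to 152 bases before the start, and 1 MCAT match at 27 to 22 bases before it. A second start of Tnnt2 in the table, 655 bases further on, has 1 E-box match and no MCAT match in its window. Tnni1 also has 4 E-box matches, the nearest at 31 to 26 bases before the start, and 2 in the window of its second start, 90 bases further on, which overlaps the first. Tnnc1 has 2 E-box matches and 1 MCAT match, and Tnnt1 has 1 E-box match. Over the same 250 bases, 66.2% of 32851 promoters hold an E-box match, 3.84% hold at least 4, and 12.6% hold an MCAT match. No match to the MEF2 or CArG consensus is in the 4 windows, as against 2.92% and 1.47% of all promoters with one. These matches are letters in a window and not sites shown to be bound.

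Troponin genes lie in pairs of a troponin I and a troponin T gene. Tnni1 (chr1:135779434-135810989, plus strand, 9 exons) lies 25.4 kb from Tnnt2, and Tnni2 (chr7:142441808-142444410, plus strand, 7 exons) lies 54.4 kb from Tnnt3 (chr7:142498836-142516009, plus strand, 18 exons). Tnnt1 (chr7:4504570-4516382, minus strand, 14 exons) lies 1.92 kb from Tnni3, and Tnnc1 (chr14:31208312-31211729, plus strand, 6 exons) stands apart. The genes directly adjoining them are given with their values. Lad1, between Tnni1 and Tnnt2, had 0 UMIs in 3 libraries and 2 in overloaded replicate 2. Phlda3, on the other side of Tnni1, had 7 and 6 UMIs in sham and 48 and 47 UMIs in overloaded MuSCs (log2 fold change 1.90, SE 0.38). It passed the filter on low counts through the overloaded libraries alone, so that its direction was set by the filter and its values are a description. Lsp1, between Tnni2 and Tnnt3, was lower after scaling, with 49 and 48 UMIs in sham against 46 and 79 UMIs in the deeper overloaded libraries (log2 fold change -0.60, SE 0.22, edgeR adjusted p = 0.031).

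Mrpl23, beyond Tnnt3, was lower as well (log2 fold change -1.12, SE 0.39, edgeR adjusted p = 0.026), as was Ppp1r12c beside Tnnt1, with 33 and 16 UMIs in sham and 5 and 15 UMIs after overload (log2 fold change -2.24, SE 0.44, edgeR adjusted p = 0.00058). Neither Mrpl23 nor Ppp1r12c reached the minimum count in both overloaded libraries, so that they needed the sham libraries to pass the filter and their values are a description. Syt8, Stab1, Sema3g and the pseudogene Gm28883 had at most 7 UMIs in any library. Nisch overlaps Tnnc1 on the opposite strand and had 63 and 60 UMIs in sham and 85 and 129 UMIs in overloaded MuSCs, with a log2 fold change of -0.17 (SE 0.18, edgeR adjusted p = 0.48). Prr33 overlaps Tnnt3 on the opposite strand, with at most 3 UMIs in any library. Whether counting used the strand was not given in the sources used here. Without strand, reads of such a pair cannot be told apart.

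Genes that act with troponin on the thin filament were mostly higher after overload. The gene lists from here on were chosen with earlier results of these data known, so that their counts are a description. Of 14 actin, tropomyosin and filament-length genes, 11 were tested, of which 8 rose, 2 fell and 1 did not pass the test, against 25.8% of all tested genes that rose and 26.3% that fell. Of the 11, 3 passed the filter on low counts through the overloaded libraries alone and 1 through the sham libraries alone, so that their direction was set by the filter. The counts above include these genes. So does the median log2 fold change of the list, 2.16 beside 0.05 over all genes tested, which is therefore a description. The other tested genes of the list had log2 fold changes from -0.64 to 3.40, or to 2.83 without Neb. Neb, named after its value was seen, reached the minimum count in 1 sham library, where the filter asks for 2. It thus also needed the overloaded libraries to pass, and its value is a description. Actc1, the cardiac actin that developing skeletal muscle also expresses, had 29 and 13 UMIs in sham and 230 and 357 UMIs in overloaded MuSCs (92.6 ± 47.6 and 660 ± 88.3 CPM, log2 fold change 2.83, SE 0.25, edgeR adjusted p = 3.6e-07). Tpm1, a tropomyosin, rose by 1.43 on the log2 scale (SE 0.22, edgeR adjusted p = 7.2e-05). Acta1, the adult skeletal actin, rose by less, 0.83 (SE 0.20, edgeR adjusted p = 0.0033), and was not called when sham replicate 2 was left out (log2 fold change 0.45, adjusted p = 0.22). Tpm3, whose products include the slow-fibre tropomyosin and cytoskeletal forms, fell by 0.64 (SE 0.16, edgeR adjusted p = 0.0034), but its sign turned when UMIs per tube were compared without scaling (0.33) and under offsets for abundance (0.20). The other gene that fell was Nebl, a thin filament protein of the heart and of cytoskeletal actin, with 10 and 12 UMIs in sham and 0 and 1 UMIs after overload, and Cfl2, an actin-depolymerizing factor, did not pass. Both were named after their values were seen.

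Of 11 fast fibre genes outside the troponin family, 7 were tested and all 7 rose (25.8% of all tested genes did), with log2 fold changes from 0.68 to 2.96 and a median of 1.6. Of the 7, 1 had passed the filter through the overloaded libraries alone. Myh4, at the top of that range, and Myoz1 reached the minimum count in 1 sham library, where the filter asks for 2. They also needed the overloaded libraries to pass, so that their values are a description. The count that rose includes all these genes. Myh4 was named after its value was seen. Mylpf, the fast regulatory light chain, had 50 and 17 UMIs in sham and 236 and 328 UMIs in overloaded MuSCs (log2 fold change 2.11, SE 0.26, edgeR adjusted p = 8.9e-06), and Myl1, the fast essential light chain, rose by 1.58 (SE 0.24, edgeR adjusted p = 7.5e-05). Actn3, the fast-fibre α-actinin, and Pvalb, a calcium buffer of fast fibres, rose by 0.80 and 0.68 (edgeR adjusted p = 0.0069 and 0.045). DESeq2 called 4 of these 7 genes, without Actn3 (adjusted p = 0.12), Pvalb (0.48) and Myoz1, a gene named after its value was seen (0.10). Pvalb and Myoz1 were also not called without sham replicate 2 (log2 fold change 0.12 and 0.85, adjusted p = 0.77 and 0.16), where 5 of 8 genes tested were called.

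Of 10 slow fibre genes, 9 were found and 4 were tested, of which 2 rose, 1 fell and 1 did not pass, beside 25.8% and 26.3% of all tested genes that rose and fell. The 2 that rose, Casq2 and Csrp3, had passed the filter through the overloaded libraries alone, so that their values are a description. Casq2, a calcium store protein of slow fibres and heart, had 0 UMIs in both sham libraries and 29 and 58 UMIs after overload, at least 14.9-fold higher. Csrp3, a Z-disc protein of slow fibres and heart, likewise had 0 UMIs in sham and 19 and 47 UMIs in overloaded MuSCs, at least 11.3-fold higher. Atp2a2, the slow and cardiac calcium pump that other cells also use, fell by 0.53 (SE 0.18, edgeR adjusted p = 0.023), a call that was lost without sham replicate 1 (adjusted p = 0.33), by DESeq2 (0.17) and with library sizes alone (0.24), and whose log2 fold change turned sign per tube (to 0.44) and under offsets for abundance (to 0.10). Mybpc1, a slow-fibre myosin-binding protein, had a log2 fold change of -0.12 (SE 0.37, edgeR adjusted p = 0.82). The slow myosin genes Myh7, Myl2 and Myl3 had at most 1 UMI in any library. The other untested genes were Myoz2, with 0 UMIs in sham and 9 and 8 after overload, and Ankrd2, with 1 and 0 in sham and 6 and 9 after overload. Of the fast myosins, Myh1 and Myh2 each had 0 UMIs in sham and 0 and 2 after overload, and Myh4 had 10 and 5 in sham and 145 and 79 after overload. All these genes were chosen after their values were seen.

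Of 9 embryonic and early muscle genes, 8 were tested, 7 rose and Musk, a receptor kinase of the neuromuscular junction, fell (log2 fold change -1.36, SE 0.42, edgeR adjusted p = 0.014, and 0.20 without overloaded replicate 2). The shares over all tested genes were 25.8% and 26.3%. Of the 7 that rose, 5 had passed the filter through the overloaded libraries alone, Myh3 and Myl4 among them, and for these the values are a description. Myh3, the embryonic myosin heavy chain, had 0 and 4 UMIs in sham and 81 and 151 UMIs in overloaded MuSCs (9.06 ± 12.8 and 258 ± 67.3 CPM). Myl4, a light chain of embryonic muscle and atrium, had 2 and 1 UMIs in sham and 67 and 96 UMIs after overload, a ratio of 27.9 with an exact 95% interval of 9.37 to 137. Chrna1, an acetylcholine receptor subunit, rose by 1.95 (edgeR adjusted p = 1.0e-06). Mymk, the myoblast fusion protein myomaker, had a log2 fold change of 2.61. It reached the minimum count in 1 sham and 2 overloaded libraries, where the filter asks for 2. Mymk thus also needed the overloaded libraries to pass, and its value is a description. Musk reached the minimum in 2 sham libraries and 1 overloaded library, so that its fall is a description too. Musk was chosen after its value was seen.

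Among 14 muscle transcription factors, 13 were tested, 5 rose (Myog, Mef2a, Mef2c, Six4 and Tead4), Nfatc1 fell and 7 did not pass, against 25.8% of all tested genes that rose and 26.3% that fell, with a median log2 fold change of 0.21, all but Myog being named after their values were seen. Tead4 had passed the filter through the overloaded libraries alone. Mef2c reached the minimum count in 1 sham library, where the filter asks for 2, and also needed the overloaded libraries to pass. The count that rose was 8 with library sizes alone and under offsets for abundance and 11 per tube, where Nfatc1 lost its call (adjusted p = 0.18). DESeq2 called 3 of the list higher, with Mef2a (adjusted p = 0.31) and Six4 (0.10) lost, and Mef2a was also lost without sham replicate 1 (0.19) and without sham replicate 2 (0.28), and Tead4 under offsets for abundance (0.62). Myog, which drives terminal differentiation, rose by 1.43 (224 ± 3.09 to 605 ± 48.5 CPM, SE 0.18, edgeR adjusted p = 1.0e-05). Myf5 (log2 fold change 0.10), Myod1 (0.29) and Tead1 (0.01) did not pass (edgeR adjusted p = 0.67, 0.17 and 0.96), and all 3 were called higher under offsets for abundance and per tube, Myod1 and Myf5 also with library sizes alone and Myod1 with upper-quartile factors.

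**Figure D3:**
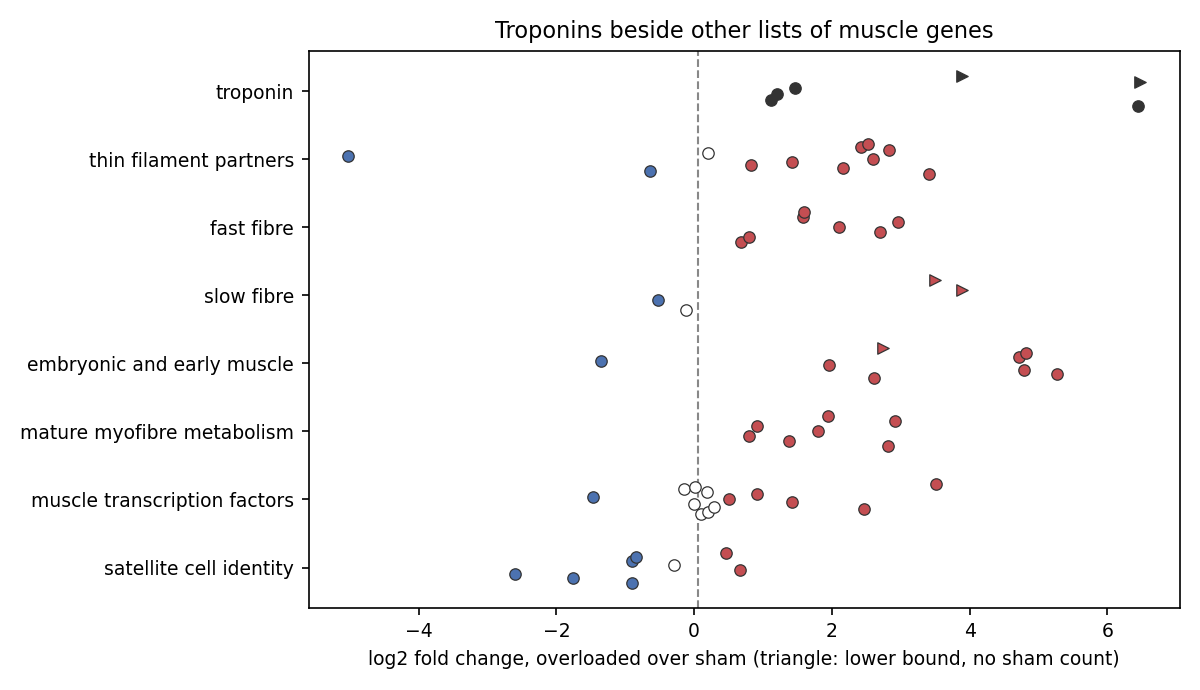
Log2 fold change of each tested gene, overloaded over sham, for the troponins (black, a description from which no test is read) and 7 other lists of muscle genes (red higher, blue lower, open not past an adjusted p of 0.1). Triangles are lower bounds for genes with no sham count, Tnni1 (1 sham count) is drawn at its fitted value, and the dashed line is the median of all genes tested, 0.05.

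The label of the cells was checked against markers. Tnnt2 is a cardiac marker. Of 12 further heart genes only Ryr2, Gata4, Tbx5 and Pln were found, with 2 and 1 UMIs summed in the sham and 1 and 1 UMIs in the overloaded libraries. None of them could be tested, and the other 8 were not analysed here. Outside that list, Tnnc1, Casq2, Csrp3, Myl4 and Actc1, which heart and skeletal muscle share, had more UMIs after overload, as given above. Markers of MuSC identity were abundant in all libraries, with 1335 and 1158 UMIs summed over 8 genes in sham and 1484 and 1622 UMIs after overload, Sdc4 being the most abundant. Relative to depth this sum was lower after overload, at 0.495% and 0.445% of all UMIs in sham and 0.383% and 0.335% in overloaded libraries. Of these 8, Itga7 and Cdh15 rose and Pax7, Calcr, Chodl, Sdc4 and Vcam1 fell (25.8% and 26.3% of all tested genes did), the first 4 being named after their values were seen. Itga7 was lost without sham replicate 2 (adjusted p = 0.11), and Cdh15 by DESeq2 (0.29) and without sham replicate 1 (0.35), sham replicate 2 (0.18) or overloaded replicate 1 (0.17). Pax7 had 118 and 107 UMIs in sham and 108 and 137 UMIs in the deeper overloaded libraries (log2 fold change -0.84, SE 0.16, edgeR adjusted p = 0.00064). Among the others Chodl fell by 1.76 (SE 0.18, edgeR adjusted p = 1.1e-06) and Sdc4, a surface proteoglycan, and Vcam1, an adhesion molecule, fell by 0.91 and 0.90 (edgeR adjusted p = 0.0012 and 0.00027), the calls of Sdc4, Vcam1 and Pax7 being lost per tube and under offsets for abundance. Des, the muscle intermediate filament, had a log2 fold change of -0.29 (edgeR adjusted p = 0.14), and its direction depended on the setting: it was called higher per tube (0.67) and under offsets for abundance (0.66), and lower with the other filter (-0.35) and without overloaded replicate 1 (-0.31).

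Genes listed as markers of mature myofibres moved with the troponins, and the cells that their RNA came from were not tested. The markers (10 genes found of 11) gave 156 and 96 UMIs in sham and 660 and 865 UMIs in overloaded libraries. All 7 that were tested rose (median log2 fold change 1.80), against 25.8% of all tested genes. Of the 7, 2 had passed the filter through the overloaded libraries alone, and 1 of these, Pgam2 (edgeR adjusted p = 0.094, named after its value was seen), was lost by DESeq2 (0.65) and without sham replicate 2 (0.69) and turned sign under offsets for abundance (log2 fold change -1.05). DESeq2 called 5 of the 7. Ttn, the giant titin of the sarcomere, had 22 and 11 UMIs in sham and 234 and 250 UMIs after overload (log2 fold change 2.92, SE 0.25, edgeR adjusted p = 2.8e-07). Ckm, the muscle creatine kinase, rose by 0.80 and was not called without sham replicate 2 (edgeR adjusted p = 0.0038 and 0.21). Pygm, an enzyme of glycogen breakdown, rose by 0.91 (edgeR adjusted p = 0.0074) and was lost by DESeq2 (adjusted p = 0.13). Eno3, an enzyme of muscle glycolysis, had a log2 fold change of 1.95. Eno3 and Cox6a2, the latter named after its value was seen, reached the minimum count in 1 sham library, where the filter asks for 2. Both needed the overloaded libraries to pass, so that their values are a description, and the count of 7 includes them. Sham replicate 1 held more UMIs of the mature myofibre markers than sham replicate 2. It likewise held more of the fast fibre list (237 against 107 UMIs) and of Tnnt3 and Tnni2, in libraries of similar depth. In such bulk libraries, fewer cells of a type and less RNA per cell cannot be told apart, and the part of fibre RNA in the troponin levels was not tested.

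Leukocyte markers moved in the same direction at lower levels. They gave 2 and 5 UMIs over 9 genes in sham and 60 and 127 UMIs in overloaded libraries, led by Lyz2, with 0 UMIs in sham and 17 and 38 UMIs after overload, at least 9.40-fold higher, and by Cd74, with 0 in sham and 17 and 27 UMIs (at least 7.52-fold). Of the 9 genes, 7 were at 0 in both sham libraries, and Lyz2 and Cd74, the 2 that passed the filter on low counts, did so through the overloaded libraries alone. Cd68 and Csf1r had too few counts for the test. The sort was by YFP of the Pax7 lineage, which leukocytes do not carry, and the part of these genes in the troponin levels was not tested.

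**Figure D4:**
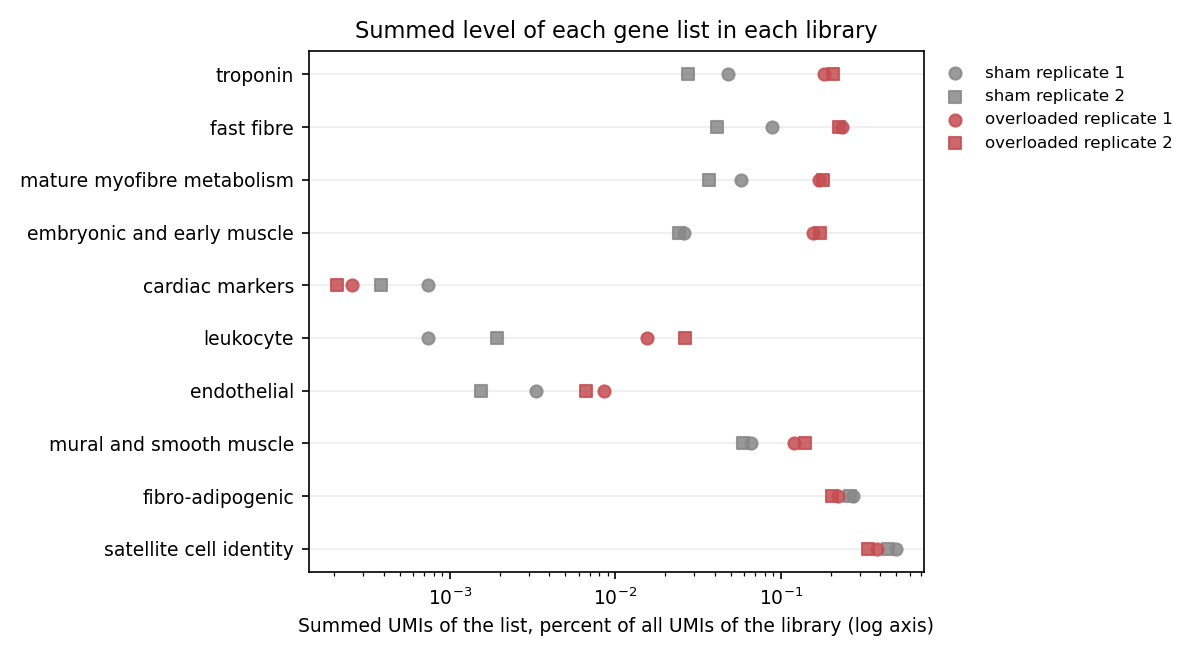
Summed UMIs of each gene list as a percent of all UMIs of the library (log axis), for the 2 sham (grey) and 2 overloaded (red) libraries. The troponin sum goes from 0.0478% and 0.0276% in sham to 0.182% and 0.205% after overload, beside the fast fibre, myofibre and embryonic lists, while the cardiac markers stay at 1 or 2 UMIs in every library.

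Genes whose pattern over the 4 libraries was most like that of Tnnt2 were ranked by the root mean square difference of log2 CPM, each gene centred on its own mean. Over the 7227 other tested genes, Spp1 was nearest with 0.37, at 0 UMIs in both sham libraries and 179 and 165 UMIs after overload. Hmga2, a chromatin protein of fetal and proliferating cells, followed with 1.11 (52 and 58 UMIs after overload), then 1500015O10Rik with 1.17, Cdk1, the mitotic kinase, with 1.22 and Mgp, a matrix Gla protein, with 1.24. Of these 5 genes, 3 had no sham UMI. For genes at 0 the measure depends on the small count added before the logarithm, so that genes with few sham and many overloaded UMIs come near Tnnt2 by construction.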

How the data were processed

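RNA-seq libraries of sorted MuSCs (2 sham, 2 overloaded) were analysed from the counts of UMIs per gene that the authors deposited without normalization. Per the study's methods, barcodes were extracted with UMI-tools (v.1.0.0), reads were mapped to GRCm38 with HISAT2 (v.2.1.0) and assigned with featureCounts (v.1.6.4), and UMIs were collapsed by the directional method. The annotation release and strand setting are not given in the sources used here.

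The counts were scaled by TMM and filtered by filterByExpr (minimum count 10, minimum total 15) with edgeR v.4.0.16 under R v.4.3.3, which left 7228 genes to be tested by glmQLFit and glmQLFTest with Benjamini-Hochberg adjustment and the threshold of 0.1 of the study's methods. The minimum count, taken at the depth of the median library, must be reached in at least 2 libraries of any group. Genes said to pass through 1 group alone reached it in no library of the other group. CPM are counts divided by the scaled library size. The prior count of fitted values was 0.125. For genes without sham counts the fold was bounded with 3 counts as the sham total, and 1 to 3 sham counts were given an exact binomial (Clopper-Pearson) 95% interval. With 2 libraries per group, an exact permutation test of a single gene cannot pass the threshold, so none was run. The libraries of a group differed by more than sampling noise (chi-square per degree of freedom 1.36 for sham and 1.57 for overloaded, and 7.61 to 9.31 between groups).

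Members and gene lists were chosen with earlier results of these data known. Named were the troponins, up to 4 genes of each list with the highest mean CPM, genes that overlap or adjoin a troponin gene, and the 5 genes most like Tnnt2. Further list genes were named after their values were seen, as stated where they appear. Gene positions are from GENCODE M21, in which all 19353 identifiers matched and 19331 had the same name. Protein sequences, Tnnc2 and Tnni3 were not analysed here. Alternatives were other scalings (DESeq2 size factors, upper-quartile factors, library sizes alone, UMIs per tube, loess offsets for abundance), other filters, limma-voom (limma version 3.58.1), DESeq2 (version 1.42.0) on the genes kept, a threshold of 0.05, a prior count of 2, the replicate number as a block and each library left out. Other steps ran in Python (3.11.15) with numpy v.2.4.6, pandas v.2.3.3, scipy v.1.17.1 and, for plots, matplotlib (3.10.9).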

Additional observations from a re-analysis of the deposited data

How the results depend on the processing

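The troponins were chosen on these values, and 4 of the 6 passed the filter through the overloaded libraries alone, so that nothing is read from their calls under the alternatives (6 of 6 in each run except DESeq2, with 5). Of all genes, 1868 were called higher and 1898 lower, 3766 in either direction; DESeq2 called 762, 1049 and 1811, and UMIs per tube gave 4481 higher and 331 lower. Library sizes alone moved the share of higher calls to 66.6% and UMIs per tube to 93.1%, and the median log2 fold change of all genes from 0.05 to 0.33 and 1.01 (0.15 for upper-quartile factors, 0.30 with no filter), so that the smaller fold changes of Tnnt3, Tnni2 and Tnnt1 are best read against these shifts. Per tube they were 2.16, 2.06 and 2.43 on the log2 scale, and under offsets for abundance, where the median of all genes was 0.02, they were 1.86, 1.41 and 1.27. The lower bounds depend on the group total, and ranged from 42.6 to 174 for Tnnt2 and from 7.12 to 29.0 for Tnnc1. Leaving out 1 library gave 1360 to 1668 genes higher, 1489 to 1720 lower and 2849 to 3388 in either direction, and log2 fold changes of 1.17 to 1.78 for Tnnt1, 0.86 to 1.56 for Tnnt3 and 0.69 to 1.64 for Tnni2. The Tnni1 share was 32.5 to 49.8% in overloaded and 0 to 2.22% in sham MuSCs.

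In the lists, the count of thin filament genes that fell was 1 per tube and 1 under offsets for abundance, and 1 to 2 with a library left out. The count of them that rose was 8 to 9 over the alternatives. The count of slow fibre genes that fell was 0 with library sizes alone, per tube, under offsets and by DESeq2, and 0 to 1 with a library left out, and the count that rose was 1 under offsets and 4 with no filter. The embryonic gene that fell was lost per tube and by DESeq2 (0 genes), and the count was 0 to 1 with a library left out. DESeq2 called 4 fast fibre genes. With the replicate number as a block, 1806 genes were higher, 1864 lower and 3670 in either direction, and Pgam2 lost its call (adjusted p = 0.11), but deviations of same-numbered libraries were not correlated (r = -0.035 over 7228 genes), so the numbers are not shown to pair the libraries. The planned filter of 10 counts in every library of a group kept 7572 genes. Differences below the limit of 3 counts were not detectable at this depth.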

Other observations

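Markers of other cell types that a muscle digest can hold were counted too. The 6 endothelial markers gave 9 and 4 UMIs in sham and 33 and 32 UMIs in overloaded libraries, Cdh5 and Pecam1 being the most abundant, and none had enough counts for the main test. With no filter, and with the filter of 10 counts in every library of a group, 1 of them was called higher. Fibro-adipogenic markers gave 733 and 686 UMIs over 6 genes in sham and 857 and 982 UMIs after overload, most of them from Col3a1. Pdgfra, however, had 0 UMIs in both sham libraries and 2 and 0 UMIs after overload. Lum had 8 and 6 UMIs in sham and 8 and 13 UMIs after overload. Both had too few counts for the test and were named after their values were seen. Of 4 tested genes 1 rose and 3 fell, beside 25.8% and 26.3% of all tested genes. Col3a1, Dpt and Dcn fell by 0.53, 1.43 and 0.38 (edgeR adjusted p = 0.013, 4.6e-06 and 0.085). However, Col3a1 was not called with library sizes alone (edgeR adjusted p = 0.15) and was called higher per tube and under offsets for abundance (adjusted p = 0.0054 and 7.6e-05). Dcn was called higher per tube (0.024) and was not called with library sizes alone, upper-quartile factors, offsets for abundance, no filter or DESeq2. Per tube 3 genes of the list were higher and 1 lower. The gene that rose, Ly6a, had 1 and 0 UMIs in sham and 22 and 41 UMIs after overload and had passed the filter through the overloaded libraries alone. Mural and smooth muscle markers gave 177 and 154 UMIs over 7 genes in sham and 463 and 679 UMIs after overload, of which Acta2, the smooth muscle actin that differentiating myoblasts also express, made up 224 UMIs in sham and 849 UMIs after overload (log2 fold change 0.95, SE 0.16, edgeR adjusted p = 0.00017). Rgs5, a pericyte gene, had a log2 fold change of 1.88. It reached the minimum count in 1 sham library and needed the overloaded libraries to pass the filter, so that its value is a description. Tagln fell by 0.61 (edgeR adjusted p = 0.045), turning sign per tube, and Cspg4 had too few counts for the test. The calls of Col3a1, Dcn and Tagln were each lost without sham replicate 1, that of Dcn also without sham replicate 2 and those of Dcn and Tagln without overloaded replicate 2, and Tagln was not called with library sizes alone, no filter or DESeq2.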
